A study of Mus musculus with 3 samples.

Results

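At day 14 of an in vitro Leydig cell differentiation, 442 of 973 cells were low in the steroidogenic enzymes, and these cells are the subject here. They were chosen by their own counts: a cell of the day 14 library was called low when it held 0 Cyp17a1 UMIs (unique molecular identifiers, each 1 captured transcript) and fewer than 5 UMIs of Cyp11a1 plus Hsd3b1 per 10000 UMIs of the cell. The 442 low cells made up 45.4% of day 14 (exact Clopper-Pearson 95% interval 42.3% to 48.6%) and were part of 6124 cells in all over 3 days. They were compared with the 418 day 14 cells at 10 or more per 10000, called high cells, which were 43.0% of the day (39.8% to 46.1%). The 113 cells in neither group are called the middle cells.

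The study asked whether a mesenchymal population of the adult mouse testis can give rise to its somatic cells, and here whether such cells become Leydig-like in culture. Cells were sorted as Sca1+/cKit- from testes of C57BL/6 adult mice aged 8 to 12 weeks and plated on Matrigel at 100000 cells per well. They recovered for 18 h in 10% FBS and were expanded for 3 days with PdgfAA, PdgfBB and Fgf2, each at 10 ng/ml, and 0.5 uM SAG, an agonist of the hedgehog receptor Smo. Single cells were then profiled by Drop-seq, which captures cells with barcoded beads in droplets, on day 4, day 7 and day 14, with 1 library per day. Day 4 cells had spent 0 days, day 7 cells 3 days and day 14 cells 10 days in differentiation medium, which added 5 mM LiCl2, used to mimic Wnt signalling, and 10 uM DAPT, which blocks Notch cleavage. All 3 groups shared the strain, the sort, the mitogens, SAG and, during recovery and expansion, the antibiotic Normocin. The differentiation medium held Pen-strep. As models they have limits: the sort enriches for a surface phenotype and not for 1 lineage, the cells grew on Matrigel with added growth factors and without seminiferous tubules, and each day is a single culture. Differences between days therefore cannot be told apart from differences between libraries.

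Leydig cells make testosterone from cholesterol. Star carries cholesterol into the mitochondrion, Cyp11a1 cleaves its side chain, Hsd3b1 and Cyp17a1 carry out the next steps, and luteinizing hormone acts through Lhcgr. Interstitial stromal progenitors, from which adult Leydig cells arise, instead make collagens, proteoglycans and other matrix and carry receptors for platelet-derived growth factors and hedgehog ligands.

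Before any result, the barcodes themselves need a remark. Among the 973 day 14 barcodes there were 601 distinct sequences over the first 11 of the 12 bases. In all, 132 sets of barcodes agreed over those 11 bases and held 504 barcodes, and 115 of the sets held 4, one for each possible last base. Sets of this kind can arise when a bead lacks a base, so that 1 cell is split over several barcodes, but whether they did so here was not tested. Barcodes in sets had a median of 2135.5 UMIs, barcodes alone 7508, and sets summed into 1 barcode 9025.5. In 87 of the 132 sets every barcode fell into the same group, and in 5 a low and a high barcode were found together. Of the low cells, 241 were in sets and 201 were alone, and of the high cells 212 were in sets and 206 alone. The main results are given with and without this split, the latter after the barcodes of a set had been summed. Summed, 259 of 601 barcodes were low (43.1%, 39.1% to 47.2%) and 260 were high. The same was seen on day 4, with 351 sets, and on day 7, with 269. No whole barcode was shared between libraries, and 1 stretch of 11 bases was shared by day 7 and day 14.

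Low cells were the shallower group. They held 1955895 UMIs in total with a median of 2795 per cell (704 to 20725) and 1420 genes, while high cells held 2632906 UMIs with a median of 3603 (636 to 80524) and 1681.5 genes. The median share of mitochondrially encoded UMIs was 2.28% in low and 2.45% in high cells. The same rule took in 2130 of 2171 cells of day 7 (98.1%, median 3315.5 UMIs) and 2966 of 2980 cells of day 4 (99.5%, median 2887.5 UMIs), so at these days it sets almost no cell apart. Summed over its cells, the day 14 library held 5324400 UMIs, less than 0.5 of the 11627440 of day 7 or the 12677110 of day 4. Levels below are summed UMIs of a group as counts per 1000000 UMIs (CPM), and the ranges in parentheses after levels and ratios are exact 95% intervals of those counts. They cover counting error and no other: no day has a replicate library, so no test was made, and the cells of a library are not replicates of it.

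The rule genes describe the choice and are no result. Low cells held 126 Cyp11a1 UMIs, or 64.4 (53.7 to 76.7) CPM, 78 Hsd3b1 UMIs, or 39.9 (31.5 to 49.8) CPM, and by construction 0 of Cyp17a1. High cells were at 4104, 3483 and 1709 CPM, although 229 of the 418 had no Cyp17a1 UMI. Middle cells lay in between, at 259.7, 237 and 82.9 CPM. In the day 7 cells under the same rule Cyp11a1 was at 1.135 CPM.

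The group is a range of a score and not a type of cell, and its edge runs through many cells. Of the 442 low cells, 312 had no UMI of the 3 genes, 84 had 1 and 46 had 2 or more. At 2000 UMIs a single UMI is worth 5 per 10000, and 154 low cells were below that depth. With 1 more UMI, 194 low cells would have passed the limit, and with 1 less, 52 cells without Cyp17a1 would have fallen under it. A further 38 cells were under the limit but held Cyp17a1, 36 of them as 1 UMI. The highest low cell scored 4.97 and the lowest cell without Cyp17a1 past the limit 5.04, whereas the median was 0 in low and 59.2 in high cells (10.1 to 272). These counts are for barcodes as deposited, where low cells had a median of 2795 UMIs and 108 of 442 were below 1500. With barcodes summed the median was 6563 UMIs and 15 of 259 were below 1500, so shallow cells at the edge may in part be split barcodes, which was not tested.

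**Figure D1:**
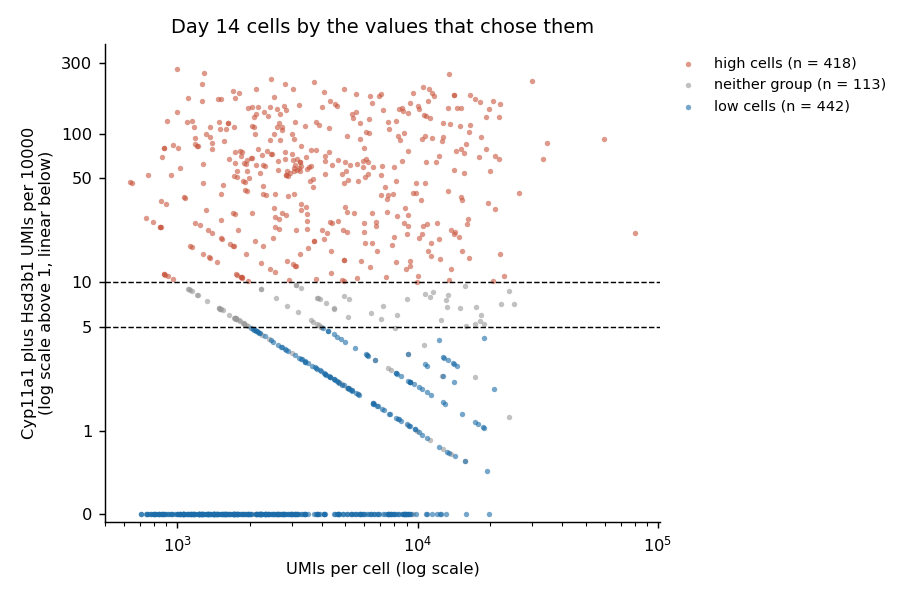
Each point is 1 of the 973 day 14 cells, with its UMIs on a log axis against its Cyp11a1 plus Hsd3b1 UMIs per 10000 (log above 1, linear below); dashed lines mark 5 and 10, and colours give the low, high and middle cells. The 442 low cells have a median of 0 and the 418 high cells one of 59.2, while shallow cells just over the lower line hold a single UMI.

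Just inside and just outside the limit, levels are given for genes that were chosen after their values were seen. The 21 cells at 4 to below 5 (median 2450 UMIs) held Mmp2 at 371 CPM (256 to 522), and the 25 cells without Cyp17a1 at 5 to below 6 (median 1964 UMIs) held it at 350.0 CPM (253 to 471). Dcn was at 1204 CPM (987 to 1455) just inside and 920 (758 to 1106) just outside, and Insl3 at 1114 (906 to 1357) and 1449 (1244 to 1678). In these 3 genes the intervals overlap, so among so few cells no step at the limit could be seen. Star was higher inside, at 1722 CPM (1460.1 to 2018) against 798 (648 to 972) outside, which is the reverse of its order in the whole groups.

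The 4 genes that mark the group are Gpx3, a secreted glutathione peroxidase, Selenbp1, a selenium-binding methanethiol oxidase, Mmp2, the gelatinase that cleaves basement membrane collagen, and Apoe, the lipid carrier of lipoproteins. In low cells Gpx3 stood at 891 (849 to 933) CPM, Selenbp1 at 223 (202 to 245), Mmp2 at 990.3 (947 to 1035) and Apoe at 2364 (2296 to 2433). High cells held 541 (513 to 570.1) CPM of Gpx3, 157 (142 to 173) of Selenbp1, 262 (243 to 283) of Mmp2 and 2092 (2037 to 2148) of Apoe. All 4 were thus found in both groups, though how much of them is free RNA was not tested, and Mmp2 was the one that differed most, 3.77-fold (3.46 to 4.12) higher in low cells. Gpx3 was 1.65-fold (1.53 to 1.77) higher, Selenbp1 1.42-fold (1.24 to 1.63) and Apoe 1.1303-fold (1.09 to 1.18). The log2 ratios, here and throughout with 1 CPM added to each level, were 1.91, 0.72, 0.50 and 0.18, and 1.94, 0.73, 0.51 and 0.18 with barcodes summed. For Selenbp1 the ratio depended on which cells were counted and on their weight. Its log2 value was -0.02 when cells were thinned to 1500 UMIs, which also left out cells of lower depth. It was 0.24 when every cell had equal weight, 0.60 among cells with at least 3000 UMIs and 0.80 with barcodes alone.

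Counted per cell, the label genes were found in both groups. Mmp2 was seen in 69.5% of low and 50.7% of high cells, and in 55.1% and 26.2% after thinning to 1500 UMIs, which left out 108 low, 59 high and 421 day 7 cells of lower depth. Gpx3 was seen in 58.8% and 54.5% (thinned 44.9% and 39.0%), and Selenbp1 in 41.0% and 39.2% (thinned 22.8% and 20.6%). Apoe was found in nearly every cell, 91.9% and 91.4% (thinned 85.3% and 78.6%). Medians over cells were 5.93 per 10000 UMIs in low against 0.489 in high cells for Mmp2, 2.21 against 1.29 for Gpx3, and 15.4 against 16.8 for Apoe, where the order turned, and 0 in both for Selenbp1. The label holds in that the 4 genes are present. Against the high cells of the same day it is Mmp2, of these 4, that tells the groups apart, and the 4 together came to 4468 CPM in low, 3052 in high and 3588 in middle cells.

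Against the earlier days the 4 genes stood out clearly, as a sum in all groups of day 14 and not only in low cells. Gpx3 was at 95.1 CPM in day 7 and 22.2 in day 4 cells under the same rule, Selenbp1 at 14.5 and 16.5, Mmp2 at 167 and 51.8, and Apoe at 178 and 82.9. Low cells of day 14 were thus 9.37-fold (8.68 to 10.1) above day 7 in Gpx3, 15.4-fold (12.8 to 18.5) in Selenbp1, 5.93-fold (5.56 to 6.32) in Mmp2 and 13.3-fold (12.6 to 14.0) in Apoe. The 4 together rose from 173 CPM on day 4 to 455 on day 7 and 4468 in the low cells of day 14, while the share of cells with Gpx3 was 16.3% on day 7 (thinned 8.95%) and with Apoe 28.9% (thinned 17.6%). In high and middle cells of day 14 the 4 together were at 3052 and 3588 CPM, and day and library cannot be told apart. Day 14 barcodes outside the 973 cells held Apoe at 2406 CPM, and the share of free RNA was not tested.

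Over all genes, low and high cells were close. Of 3406 genes with at least 20 UMIs in both groups together and at least 50 CPM in either, 185 (5.43%) were at least 2-fold higher and 168 (4.93%) at least 2-fold lower in low cells, and the median log2 ratio was 0.02. Without the minimum of 50 CPM, as used for the gene lists below, 635 of 10048 genes (6.32%) were at least 2-fold higher and 428 (4.26%) lower, with a median of 0.05 over the 10051 genes measured. With barcodes summed, 187 and 170 of 3398 genes passed the fold, 183 and 163 of them the same genes. As the groups were set by 3 genes of these cells, the values for other genes are a description of the groups.

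Other genes of the Leydig programme were lower in low cells but still gave UMIs, of which the share from free RNA was not tested. Insl3, the insulin-like hormone of Leydig cells, stood at 601 (567 to 637) CPM against 2902 (2837 to 2968) in high cells, 4.83-fold (4.54 to 5.14) lower. Ptgds, a prostaglandin D synthase, was at 620.2 against 2409.5 CPM, 3.89-fold (3.65 to 4.13) lower. Fdx1, the ferredoxin that passes electrons to Cyp11a1, was at 253 against 1514 CPM, 5.98-fold (5.45 to 6.58) lower, and Star at 627 (593 to 663) against 1365 (1321 to 1411), 2.18-fold (2.04 to 2.32) lower. Star was thus the least different of these 4, the 4 members with the most UMIs. Among the 26 measured of 28 listed steroidogenesis genes other than the rule genes, 16 were at least 2-fold lower and 1 at least 2-fold higher, with a median log2 ratio of -1.29 (-1.58 to -0.45; -1.26 summed) beside 0.05 for all genes measured. The list came to 4602 CPM in low and 12988 CPM in high cells.

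Lhcgr, the luteinizing hormone receptor, was nearly confined to the high cells. It gave 1 UMI in 1 low cell (0.511 CPM) and 199 UMIs in 77 high cells (75.6 CPM), a ratio of 148 with a counting interval of 26.2 to 5868, and 18.4% of high cells held it (thinned 7.52%, against 0 in low cells, upper limit 1.098%). Nr5a1, the nuclear receptor that drives steroidogenic genes, was chosen after its values were seen: it was at 72.1 (60.7 to 85.0) CPM in low and 187 (171 to 205) in high cells, in 20.4% and 53.1% of them (thinned 7.78% and 24.8%). The receptor of the hormone therefore differed far more than the transcription factor did. The 10 Leydig markers used to check the label include the rule genes, so their order over the groups of day 14 follows from the choice of cells. They gave a median over cells of 8.82 per 10000 UMIs in low cells, 22.0 in middle, 118 in high, 2.24 in day 7 and 0.765 in day 4 cells.

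Insl3 in low cells was spread unevenly. It was seen in 221 of 442 low cells and 94.98% of high cells (thinned 35.3% and 88.3%), with a median over cells of 0.350 against 24.4 per 10000. The 44 low cells with the most of it held 68.2% of its UMIs, and for Ptgds 75.7%. Star was seen in 56.8% and 83.3% (thinned 39.2% and 70.8%).

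RNA released from high cells could place such UMIs in droplets of other cells. The cells that should lack these genes are few: 2 cells with 50 or more Lyz2 UMIs, a limit chosen after the values were seen, held 26200 UMIs (median 13100). They held 0 UMIs of Insl3 and of Ptgds, which allows up to 115 CPM from 3 counts. They also held 2 of Star, 2 of Fdx1, 1 of Cyp17a1, 3 of Cyp11a1 and 43 of Apoe, the last in 1 of the 2 cells. Of the 2 cells 1 supplied 24077 UMIs, and the other, of 2123, is itself a low cell, so they are too few to set a level of free RNA. Day 7 cells, of another library, had Insl3 in 0.892% (thinned 0.468%). The 283 day 14 barcodes with UMIs outside the 973 cells held Insl3 at 1704 CPM, Ptgds at 1251, Star at 929 and Fdx1 at 775. Each of these was above its level in low cells. Whether these barcodes are shallow cells or free RNA was not tested. How far free RNA or mixed droplets add to Insl3, Star or the rule genes in single low cells was not tested.

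Transcripts for cholesterol synthesis and uptake were lower in low cells, as the enzymes were by choice. Of 24 genes of cholesterol synthesis and uptake, all measured, 18 were at least 2-fold lower in low cells and 0 higher, with a median log2 ratio of -1.25 (-1.37 to -1.02; -1.25 summed), and the list came to 2714 CPM against 6518. Msmo1, a sterol methyl oxidase, was at 407 against 940.0 CPM, Cyp51, the lanosterol demethylase, at 288 against 759.6, Hmgcs1, which makes HMG-CoA, at 215 against 436, and Tm7sf2, a sterol reductase, at 115 against 416. In low cells the list lay near its level in day 7 cells, 2931 CPM, where 2 of 24 genes were at least 2-fold higher in low cells of day 14 and 0 lower. Genes of sterol transport showed no such common direction. Abca1, which exports cholesterol, was at 308 against 866 CPM in high cells and Clu, the carrier clusterin, at 355 against 844, but Npc2, which takes cholesterol out of lysosomes, was at 3286 and 3122. Of 16 measured apolipoprotein and efflux genes, 3 were at least 2-fold higher and 3 lower (median 0.12).

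Low cells held more of the stromal programme. Dcn, the collagen-binding proteoglycan decorin, was at 1645 (1588 to 1703) CPM in low and 434 (409 to 459.6) in high cells, 3.79-fold (3.54 to 4.06) higher, with a median over cells of 12.8 against 2.59 per 10000 and a share of 86.9% against 62.9% (thinned 76.6% and 38.4%). Vim, the intermediate filament of mesenchymal cells, was at 2091 against 1611 CPM. Vcam1, an adhesion molecule, and Smoc2, a matricellular protein, were lower, at 778 against 937 and 766 against 1634 CPM. Tcf21 and Pdgfra, the transcription factor and the receptor by which such progenitors are known, were at 29.1 (22.1 to 37.8) against 3.80 (1.82 to 6.98) and at 173 (155 to 192) against 51.3 (43.0 to 60.7) CPM. Of 23 measured progenitor genes, 13 were at least 2-fold higher and 2 lower, with a median of 1.18 (0.02 to 1.73; 1.16 summed).

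Collagens and other matrix genes were higher in low than in high cells as lists, with middle cells in between. Col3a1 and Col1a2, chains of fibrillar collagens, were at 7517 and 4653 CPM in low cells against 6737 and 1781 in high cells, and Col4a1 and Col4a2, which form basement membrane collagen, at 1659.6 and 1675 against 982 and 946. The largest of them in amount, Col3a1, thus differed least, and Col1a2 was 2.61-fold (2.52 to 2.71) higher. Of 15 measured collagens 8 were at least 2-fold higher and 0 lower (median 1.23, 0.23 to 1.70; 1.29 summed), and the list came to 18744 against 12465 CPM. Middle cells held it at 17733 CPM. Over the bins of the score used below it was at 19079, 18364, 17371, 15674, 16360 and 9840 CPM, so the largest fall lay at the last bin. Other matrix genes made up 27644 CPM of low cells against 17044, and 23880 of middle cells, with 19 of 32 at least 2-fold higher in low than in high cells and 0 lower (median 1.31; 1.35 summed). Sparc, a collagen-binding glycoprotein, was at 15202 against 11491 CPM, Mgp, an inhibitor of calcification, at 3436 against 1395, Bgn, the proteoglycan biglycan, at 2209.7 against 989, and Spp1, osteopontin, at 1598 against 966. Proteases and their inhibitors were also higher as a list, 12 of 14 with a positive ratio, though not in each of the most abundant members: Timp1 was at 4522 against 3370.4 CPM, but Timp2 at 1271 against 1341 and the serine protease Htra1 at 2634 against 3206. Of these, 7 were at least 2-fold higher and 0 lower (median 0.97), with Mmp2 among the former.

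Contractile genes held the 2 largest ratios of low to high cells at 50 CPM or more, from small amounts in few cells. Acta2, smooth muscle actin, was at 237 (216 to 259) CPM in low and 4.94 (2.63 to 8.44) in high cells, 47.9-fold (27.8 to 90.7) higher, and Tagln, transgelin, at 73.1 (61.6 to 86.1) CPM against 2 UMIs in high cells, 96.2-fold (26.2 to 802) higher. The more abundant members were less different: Cald1, caldesmon, was at 1573 against 781 CPM, Tpm1, a tropomyosin, at 708 against 273, Myl9, a myosin light chain, at 271 against 121 and Mylk, the kinase of that chain, at 202 against 129. Of 14 measured, 12 were at least 2-fold higher and 0 lower (median 1.40; 1.45 summed). Acta2 was found in 67 low cells (15.2%, thinned 13.8%) against 2.87% of high cells (thinned 0, upper limit 1.02%), and the 44 low cells with the most held 95.03% of its UMIs. Tagln was found in 24 low cells. In day 7 cells Acta2 was in 83.2% (thinned 78.5%), so the low cells as a group had far less of it than the cells of 7 days before.

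The list of selenoproteins and peroxide defence, which holds Gpx3 and also Selenbp1 as a protein that binds selenium, did not follow the label. Of its 25 genes, 0 were at least 2-fold higher and 1 lower, with a median of -0.16. The 1 below was Sepp1, the selenium transport protein, at 1567 (1512 to 1624) CPM in low and 3912 (3836 to 3988) in high cells. Gpx1, the cytosolic peroxidase, was at 699 against 978 CPM and Prdx1, a peroxiredoxin, at 1320.1 against 1632, so Gpx3 was on the high side of its list. Lysosome genes were near equal: of 33 measured, 0 were at least 2-fold higher and 0 lower (median -0.14, -0.32 to -0.03), with Cd63, a membrane tetraspanin, at 3793 against 3737 CPM, and the cathepsin proteases Ctsl, Ctsd and Ctsb at 2339, 1689 and 1447 against 3111, 1841 and 1811.

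Detoxifying enzymes split between members. The glutathione transferases Gstm1 and Gstm2 were alike in both groups, at 3192 and 2169 CPM in low and 3159 and 2261 in high cells, whereas Gsta2 and Gsta4 were at 321 and 232 against 1959 and 988. Of 16 measured, 1 was at least 2-fold higher and 4 lower (median -0.34). Aldh1a1, which makes retinoic acid, was at 2501 against 4983 CPM and Adh1, an alcohol dehydrogenase, at 569.6 against 2145. Of 9 measured retinoid genes 1 was at least 2-fold higher and 3 lower (median -0.82). Fth1, the ferritin heavy chain that stores iron, was at 7826 against 3949.6 CPM, while the metallothioneins Mt1 and Mt2 were at 2786 and 836 against 4405 and 1339. In that list 0 of 10 were at least 2-fold higher and 2 lower (median -0.33).

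Among signalling genes, those of the hedgehog, PDGF and FGF pathways, whose agonists are in the medium, leaned toward the low cells as lists. The list of hedgehog targets, which also holds receptors and co-receptors and so is no measure of what SAG drives through Smo, came to 210.1 CPM in low and 82.0 in high cells, and 4 of 7 measured were at least 2-fold higher and 0 lower (median 1.84; 1.95 summed). Ptch1, the receptor and target, was at 39.4 (31.1 to 49.2) against 8.36 (5.24 to 12.7) CPM, the target Gli1 at 10.7 (6.65 to 16.4) against 2.28 (0.836 to 4.96), and the co-receptor Gas1 at 46.0 against 9.50, while the co-receptor Boc was at 26.6 and 25.4, a difference that turned sign when cells were thinned. Ptch1 was uneven among low cells. In clusters described below it was at 82.5 CPM, from 61 UMIs, in low cells of the Acta2 cluster. It was at 8.92 CPM in those of the Lum cluster, 60.3 (16.4 to 154), from 4 UMIs, in those of the cluster led by Saa3, and 0 in those of the Ly6c1 cluster. Of 9 measured genes of PDGF and FGF signalling, 6 were at least 2-fold higher and 0 lower (median 1.06), with Spry1, a feedback inhibitor of receptor kinases, at 61.9 (51.3 to 73.9) against 7.98 (4.94 to 12.2) CPM and the receptor Fgfr1 at 47.0 against 22.0. For Wnt, 1 of 6 was at least 2-fold higher and 1 lower (median 0.34): the secreted modulator Dkk3 was at 125 against 18.2 CPM, Sfrp1 at 388 against 305, and the ligand Wnt6 at 94.6 against 74.4. Notch genes were scarce, 96.1 against 50.5 CPM, with the target Hes1 at 42.9 against 17.5, 1 of 3 at least 2-fold higher and 0 lower (median 0.98).

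Growth factor, cytokine, complement, interferon and immediate early genes had positive medians as lists. For cytokine, complement and interferon genes the interval of the median includes 0 (-0.25 to 2.74, -0.47 to 1.32 and -0.84 to 1.09). Igfbp7, which binds insulin-like growth factors, was at 8910.0 against 5224 CPM, Igf1 at 456 against 270.0 and Igfbp6 at 326 against 144, with 4 of 9 at least 2-fold higher and 0 lower (median 0.77). The chemokines Cxcl14 and Cxcl16 were at 532 and 594 against 208 and 456 CPM, that of Cxcl16 turning sign when cells were thinned, and 3 of 8 were at least 2-fold higher and 0 lower (median 0.56). Of complement genes 2 of 11 were at least 2-fold higher and 1 lower (median 0.41), with C7 of the lytic complex at 206 against 284 CPM and the inhibitor Cd59a at 330.3 against 373. Immediate early genes, which stimuli and cell handling switch on within minutes, were higher: 7 of 11 by at least 2-fold and 0 lower (median 1.33), with the transcription factors Egr1 at 217 against 85.8 CPM and Fos at 141 against 48.2. These genes are also a sign of handling during dissociation, and their part in the other results was not tested. Interferon response genes had 1 of 8 at least 2-fold higher and 0 lower (median 0.57), with Bst2, which tethers virions, at 488 against 876 CPM. The sum of that list went the other way from its median, 621 CPM in low against 960 in high cells.

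Genes of division were somewhat higher in low cells as a sum, and energy genes somewhat lower. The list of mitosis and replication came to 245 CPM (223 to 268) in low and 193 (176 to 210) in high cells, and to 495 in middle cells. The interval of its median log2 ratio of low to high cells, -0.31 to 1.20, includes 0. Few cells carried such genes: proliferation markers were at 3235 CPM in a cluster of 16 cells described below, 9 low and 5 high, and at 38.4 or less in each other cluster. Of 14 measured genes of mitosis and replication 3 were at least 2-fold higher and 0 lower (median 0.21), and Pcna, the polymerase clamp, was at 73.1 (61.6 to 86.1) against 59.3 (50.3 to 69.3) CPM and Mki67, a marker of cycling cells, at 16.9 (11.6 to 23.7) against 15.2 (10.9 to 20.7), where the intervals overlap and the sign of Mki67 turned when cells were thinned or given equal weight. The inhibitor Cdkn1a was at 491 against 528 CPM, in a list with 2 of 10 at least 2-fold higher and 0 lower (median 0.18). Glycolysis genes came to 4081 against 6235 CPM with a median of -0.55 (-0.75 to 0.001, which includes 0) and 1 of 17 at least 2-fold lower and 0 higher, among them Aldoa, an aldolase, at 968 against 1340.3 and Pkm, pyruvate kinase, at 678 against 1206. Mitochondrially encoded genes had a median of -0.36 over 8, with 0 past 2-fold.

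The 15 genes with the largest ratio of low to high cells were named by size among those with at least 50 CPM in either group. After Tagln and Acta2 came 6030408B16Rik at 70.0 against 1.52 CPM, Lmod1, an actin nucleator of muscle, at 65.4 against 3.04, and Ctgf, a matricellular growth factor, at 858 (817 to 900.0) against 52.8 (44.4 to 62.3). Timp3, an inhibitor held in the matrix, was at 506 (475 to 539) against 45.6 (37.8 to 54.5) CPM, 11.1-fold (9.18 to 13.5) higher, Ckb, a creatine kinase, at 687 against 73.7, and Fgl2, a fibrinogen-like protein, at 383 against 39.9. Those 4 genes, Ctgf, Timp3, Ckb and Fgl2, were the ones above 300 CPM in low cells. The collagen chain Col6a3 was at 128 against 11.01 CPM, the proteoglycan Lum at 60.3 against 4.94, and the collagen-binding integrin Itga1 at 83.8 against 5.32. Emp1, Tm4sf1, Gldn and Arhgap20 completed the 15, at 91.0, 75.2, 77.2 and 105 CPM in low and 4.94, 4.18, 6.46 and 12.2 in high cells. They hold matrix, adhesion and contractile genes, which need not come from the same cells. In clusters described below, which were built with these genes, low cells of the Acta2 cluster held Acta2 at 602 CPM and Lum at 12.2. Low cells of the Lum cluster held Acta2 at 26.8 and Lum at 183 CPM. Timp3 was at 1191 CPM in the former and 143 in the latter.

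At the other end, the 15 genes with the smallest ratio, under the same minimum and with the rule genes left out, began with Lhcgr. Hao2, a peroxisomal oxidase, was at 3.58 (1.44 to 7.37) CPM in low and 139 (125 to 154) in high cells, 38.8-fold (18.7 to 97.3) lower, Ly6d, a surface antigen, at 4.09 against 94.95, and Amhr2, the receptor of anti-Mullerian hormone, at 4.09 against 65.7. Oxtr, the oxytocin receptor, was at 7.67 against 94.95 CPM, Inha, the inhibin alpha subunit, at 8.69 against 79.0, and Fads2, a fatty acid desaturase, at 14.8 against 113. These 15 thus hold receptors for 3 hormones, those of Lhcgr, Amhr2 and Oxtr, beside a hormone subunit. Cst8, a cystatin, was the most abundant, at 63.4 (52.7 to 75.6) against 712 (679.9 to 745) CPM, and Sfrp4, AU021092, Serpina3a, Nabp1, Sez6l2, Nkain4 and Klk1b24 were at 2.56 to 16.4 CPM in low and 57.4 to 122 in high cells.

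Levels along the score differed in shape between genes. Day 14 cells were taken in 6 bins of Cyp11a1 plus Hsd3b1 per 10000, whatever their Cyp17a1: 0 (324 cells, median 2025 UMIs), above 0 to below 5 (156, 6491.5), 5 to below 10 (75, 3581), 10 to below 20 (74, 3599.5), 20 to below 50 (105, 4186) and 50 or more (239, 3426). Mmp2 went down over the bins at 1128, 799, 641, 436, 319.6 and 189.7 CPM. Dcn did likewise, at 1784, 1440.0, 921, 621, 577 and 319, and Fdx1 went the other way, at 189.9, 314, 447, 1004, 946 and 1909, rising at 10 and again at 50. Gpx3 was near level over the first 4 bins and lower in the last, 954, 879.7, 803, 864, 623 and 417 CPM, and Apoe had no order, 2715, 1981, 1709, 1949.9, 2558 and 1920.2. Acta2 was at 213, 232, 15.1, 9.63, 8.72 and 1.96 CPM, so most of its fall lay between the bins on either side of 5. Timp3 and Ctgf fell there and again at 10, Timp3 at 509.6, 498, 99.2, 19.3, 26.1 and 61.5 and Ctgf at 886, 851, 257, 96.3, 33.4 and 49.7. Insl3 was at 423, 748, 1284, 2292, 1964 and 3490.4 CPM, and Star at 522, 700.0, 899.6, 1548, 1204 and 1388. The genes shown by bin include ones chosen after their values were seen.

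**Figure D2:**
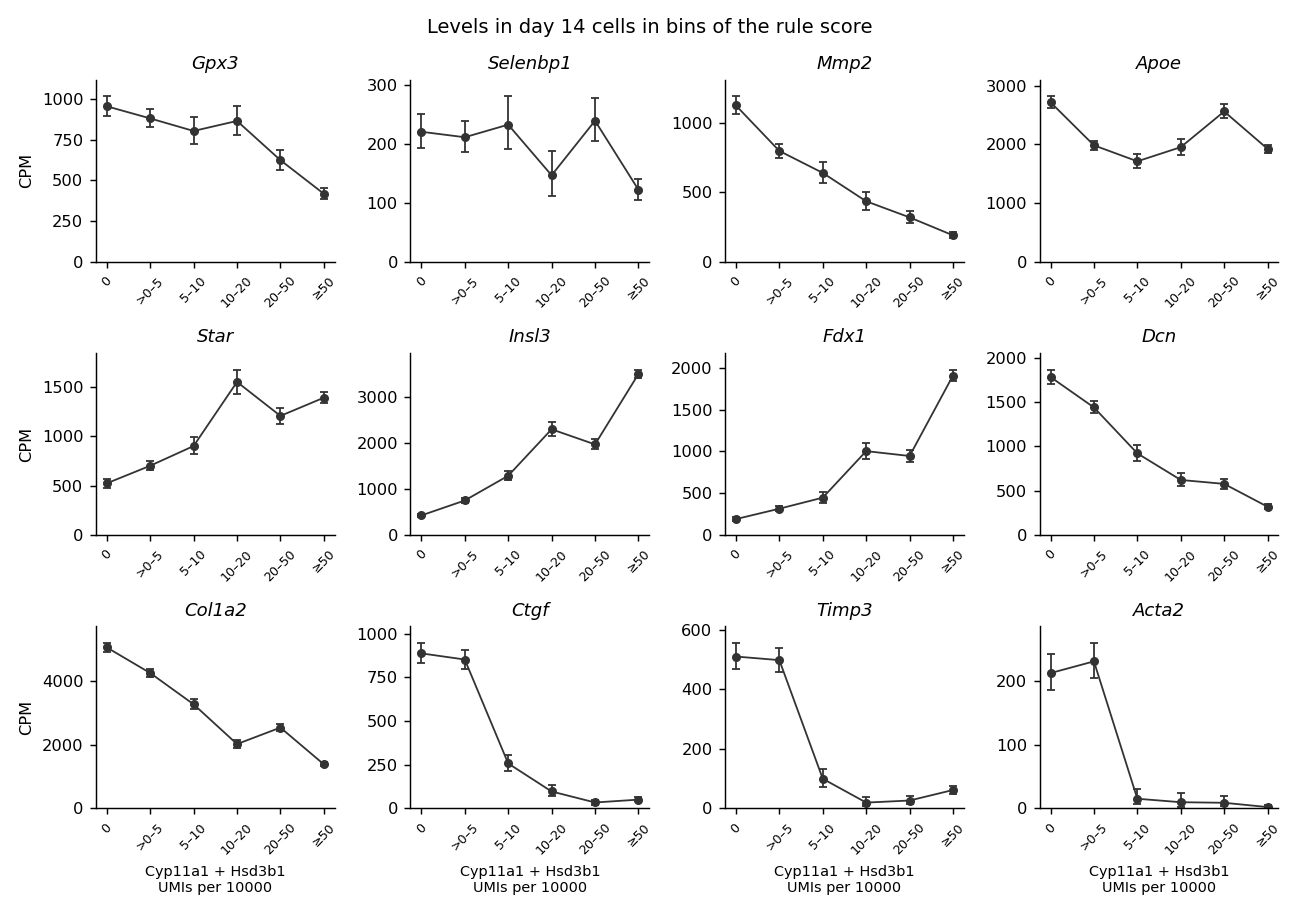
Summed levels (CPM, with exact Poisson 95% intervals as bars) of 12 genes in 6 bins of Cyp11a1 plus Hsd3b1 per 10000 UMIs for the 973 day 14 cells. Mmp2 goes from 1128 to 189.7 CPM over the bins, and Acta2 goes from 232 to 15.1 between neighbouring bins.

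Set against day 7, the low cells of day 14 were a changed population. Of 3834 genes with at least 20 UMIs and 50 CPM, 370 (9.65%) were at least 2-fold higher than in day 7 cells under the same rule and 470 (12.3%) at least 2-fold lower, and without the minimum CPM 1040 of 12108 (8.59%) and 1648 (13.6%). With barcodes summed the counts were 375 and 477 of 3824, with 363 and 459 genes in common. The median log2 ratio over the 3834 genes was -0.17, and -0.13 over the 12110 measured, so ratios here are to be read against that shift. Genes higher were 44.0% of those past 2-fold, and 55.1% once the ratios were shifted to a median of 0, so which direction had more genes depended on the scaling. Since each day is 1 library, what separates day 7 from day 14 and what separates the libraries cannot be told apart.

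Even these low cells held Insl3 and Ptgds well above day 7. Day 14 barcodes outside the 973 cells held more still, 1704 and 1251 CPM, and the share of free RNA was not tested. Insl3 went from 2.10 (1.34 to 3.12) to 601 (567 to 637) CPM, 287-fold (192 to 449.7) higher and the largest ratio of all genes at 100 CPM or more, and Ptgds from 2.53 to 620.2 CPM, 245-fold (169.7 to 367) higher. Star was 1.84-fold (1.73 to 1.96) above its 341 CPM of day 7, Fdx1 3.19-fold (2.86 to 3.57) above 79.3 and Nr5a1 3.61-fold (2.90 to 4.47) above 19.99. Of 23 measured steroidogenesis genes 13 were at least 2-fold higher and 0 lower (median 1.33; 1.35 summed). In these 5 genes the low cells lay between day 7 and the high cells. The other 8 of the 10 largest ratios were Serpina3m (0.786 to 168 CPM), the defensin Defb19 (8.47 to 765), Adh1 (9.43 to 569.6), the amylase Amy1 (0.873 to 100.2), Gsta2 (5.59 to 321), Serpina3c (2.53 to 163), Gsta4 (5.76 to 232) and Aldh1a7 (6.55 to 198). Amy1 was higher in low than in high cells (39.9 CPM), unlike Defb19 (1672) or Aldh1a7 (495).

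The contractile programme of day 7 was much reduced. Contractile genes together went from 21157 CPM on day 4 and 16145 on day 7 to 3598 in the low cells of day 14, and 15 of 18 were at least 2-fold lower and 0 higher (median -2.36, -3.20 to -1.40; -2.34 summed). Acta2 was 12.1-fold (11.03 to 13.3) below its day 7 level of 2863 CPM, Tagln 15.5-fold (13.1 to 18.4) below 1131 and Tpm1 5.22-fold (4.95 to 5.52) below 3697. Among the 10 smallest ratios were genes of the matrix: Tnc, the matrix protein tenascin, was at 4 UMIs (2.05 CPM) against 174, 85.2-fold (33.2 to 313) lower, Thbs1, thrombospondin, at 22.0 against 493, Col8a1 at 8.18 against 239.6, Ltbp2, which binds microfibrils, at 15.8 against 325, and Lox, which crosslinks collagen, at 99.7 against 1893. Mgll, a monoglyceride lipase, the protease Prss23, the neurotrophin Bdnf, the kinase Plk2 and the protocadherin Pcdh19 made up the rest, at 5.62, 35.3, 10.7, 6.65 and 6.65 CPM against 288, 665, 201, 129.8 and 126.

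Matrix genes moved in both directions. Collagens together were at 18744 CPM against 16874 on day 7, with 3 of 19 at least 2-fold higher, 5 lower and a median of -0.57, since Col3a1 was up from 3631 to 7517 CPM while Col1a2 was at 4653 against 5369. Of other matrix genes 3 of 33 were at least 2-fold higher and 14 lower (median -0.59), with Mgp at 3436 against 837 CPM and Spp1 at 1598 against 6773. Of proteases and inhibitors 4 of 15 were higher and 3 lower (median 0.74), with Timp1 at 4522 against 10812 CPM. Progenitor genes were for the most part higher, 13 of 24 by at least 2-fold and 3 lower (median 1.42), with Dcn 4.43-fold (4.24 to 4.64) above its 371 CPM and Pdgfra at 173 against 65.1.

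Lysosome, detoxifying, metal and complement genes were above day 7 as lists, in low and in high cells. Of 33 measured lysosome genes 33 had a positive log2 ratio and 22 were at least 2-fold higher (median 1.21, 0.99 to 1.54; 1.21 summed). Their sum was 6513 CPM on day 4, 10319.5 on day 7, 21125 in low and 23872 in high cells of day 14. Glutathione transferases had 10 of 16 at least 2-fold higher and 1 lower (median 1.20; 2389 CPM on day 7, 7539.8 in low and 10733 in high cells). The same figures were, for metallothionein and iron genes 7 of 10 and 0 (median 1.38), with 5867, 14284 and 12508 CPM, and for complement genes 8 of 11 and 0 (median 1.56), with 915, 1554 and 1319 CPM. Sepp1 was at 1567 CPM against 125 on day 7, C7 at 206 against 9.95, and Mt2 at 836 against 131. Selenoproteins and peroxide genes as a list had 5 of 25 at least 2-fold higher and 1 lower (median 0.29).

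Retinoid, sterol and energy genes were divided. Retinoid genes had 5 of 11 at least 2-fold higher and 3 lower (median 0.34), among the former Aldh1a1 at 2501 against 379 CPM. Apolipoprotein and efflux genes had 3 of 16 and 1 (median 0.41), with Abca1 at 308 against 62.0. Cholesterol synthesis and glycolysis had medians of -0.11 and -0.13, which lie above the -0.17 of genes at 50 CPM or more and turn positive once that shift is taken off, whereas glycolysis does not turn positive against the -0.13 of all genes measured, with 2 of 17 glycolysis genes at least 2-fold higher and 2 lower. Mitochondrially encoded genes had 1 of 8 at least 2-fold higher and 0 lower (median 0.51).

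Genes of division were far below day 7. All 17 genes of mitosis and replication, each measured, were at least 2-fold lower than on day 7 (median -2.48, -3.02 to -1.91; -2.42 summed), and their sum went from 1305 to 245 CPM. Mki67 was at 16.9 (11.6 to 23.7) CPM against 109 (103 to 115) and Pcna at 73.1 against 188. Of cell cycle inhibitors 2 of 11 were at least 2-fold higher and 3 lower (median -0.50), and Cdkn1a was level, 491 against 503 CPM.

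Signalling lists moved in several directions against day 7. PDGF and FGF genes had 1 of 11 at least 2-fold higher and 6 lower, with a median of -1.34. Among the 6 is Pdgfb, which gave 0 UMIs in low cells. Set at its bound of 3 counts it was not 2-fold lower, and the median was -0.77. The ligand Pdgfa was at 35.8 against 204 CPM and Fgfr1 at 47.0 against 121. The hedgehog list had 3 of 9 and 1 (median 0.77), Wnt genes 3 of 8 and 1 (median 0.48), and insulin-like growth factor genes 3 of 12 and 1 (median 0.54). Notch genes had 0 of 5 at least 2-fold higher and 3 lower (median -1.08). That list holds receptors beside targets and the medium of both days held DAPT, so it is no measure of what DAPT does. Chemokines and cytokines were mainly lower, 1 of 11 higher and 6 lower (median -1.41), with Cxcl14 at 532 against 1452 CPM but Cxcl16 at 594 against 137. Interferon genes had 1 of 12 higher and 2 lower (median -0.39), and immediate early genes 4 of 12 and 2 (median 0.07), with Fos at 141 against 12.4 CPM.

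**Figure D3:**
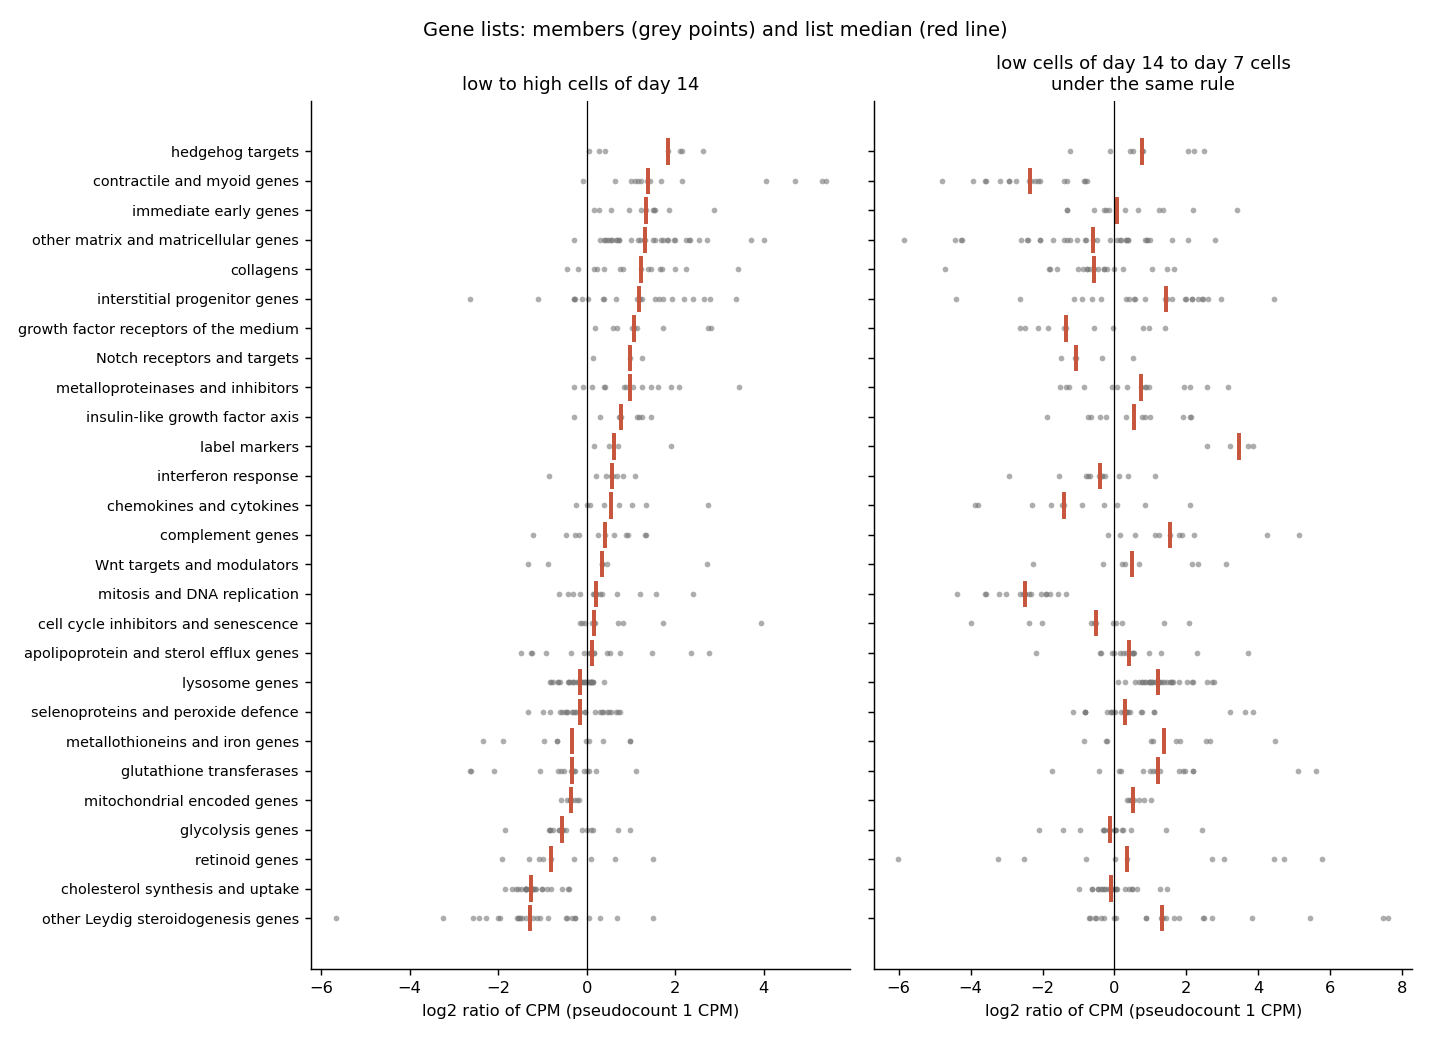
Log2 ratios of levels for the 27 gene lists other than the rule genes, low to high cells of day 14 on 1 panel and low cells of day 14 to day 7 cells on the other; grey points are members with at least 20 UMIs and red marks the median of a list. Contractile genes have a median of 1.40 against high cells and -2.36 against day 7, and steroidogenesis genes -1.29 and 1.33.

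The low cells were not of 1 kind. When the 973 day 14 cells were clustered on all genes but the 3 rule genes, they fell into 9 clusters, and 360 of the 442 low cells (81.4%, 77.5% to 85.0%) lay in clusters where low cells outnumbered high ones, a measure chosen after the counts were seen. It was 210 of 259 (81.1%) with barcodes summed. With barcodes as deposited the largest share, 140 low with 31 middle and 5 high cells, was in a cluster led by Acta2, Timp3 and Tagln, and the next, 114 low with 18 middle and 2 high cells, in one led by Lum, Col6a3 and Gsn. These sizes depended on the split of barcodes. With barcodes summed, the cluster led by Acta2, Tagln and Timp3 held 38 of 259 low cells, that led by Lum 50, and the one with the most, 91, was led by Zdhhc15 and Gldn. With barcodes alone these were 32, 42 and 48 of 201. Further low cells, 50 and 47, shared clusters led by C1qtnf3, Sfrp2 and Wfdc1 and by Ly6c1 with 25 and 20 high cells. A small cluster led by Lyz2, Ctss and Lgals3, with Mki67 and Top2a next, held 9 low and 5 high cells, and these 9 are counted among the 360. The remaining 23, 46 and 13 were in clusters with 103, 68 and 74 high cells, and the cluster led by Klk1b24 and Ly6d had 116 high and 0 low cells. Median depth ran from 1654 to 10636.5 UMIs over the clusters, and its part in the clustering was not tested.

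**Figure D4:**
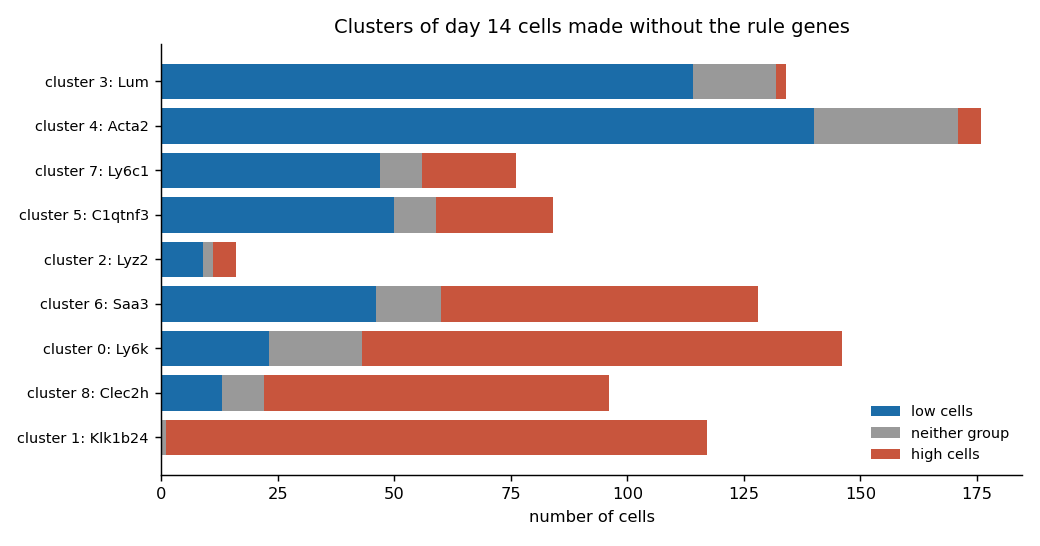
Numbers of low, middle and high cells (stacked bars, cells) in each of 9 clusters of the 973 day 14 cells, each with its leading gene. The cluster led by Acta2 has 140 low and 5 high cells, and that led by Klk1b24 has 0 and 116.

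Within the low cells the label genes divided along these clusters, which were built with these genes, so the values only describe them and the genes were chosen after their values were seen. Mmp2 was at 2131 (1998 to 2271) CPM in the 114 low cells of the Lum cluster and 512 (461 to 566) in the 140 of the Acta2 cluster, Apoe at 4126 and 1567, Gpx3 at 1411 and 530.5, and Dcn at 2829 and 1426. For Selenbp1, 167 (132 to 209.6) and 225 (192 to 262), the intervals overlap. Apart from Selenbp1, the label genes were thus higher in the Lum cluster of the 2, whose low cells were also the shallower, with a median of 2209 against 4500 UMIs. Insl3 was low in both, 158 and 143 CPM, and higher in the 23 low cells of the deepest cluster, 2059, and the 47 of the Ly6c1 cluster, 1465, as was Star, 515, 238, 1703 and 1313. Ctgf and Timp3 were higher in the Acta2 cluster than in the Lum cluster, at 1544 and 1191 CPM against 729 and 143.

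Markers of other cell types were read as whole lists in the low cells. Of 12 macrophage markers 8 gave UMIs, 75.7 CPM in low, 12.2 in high and 1532 in middle cells, led by Lyz2 with 82 UMIs in 12 low cells, with C1qb, Pf4, Cd74 and Adgre1 at 0. Single cells carry these sums: the 2 cells with 50 or more Lyz2 UMIs, 1 middle and 1 low, hold 1007 of them, and so most of the Lyz2 of both groups. Of 12 endothelial markers 3 gave UMIs, 59.3 against 19.0 CPM, led by Cdh5 with 80 UMIs, and Pecam1, Vwf, Tie1, Cldn5, Kdr, Esam, Erg, Sox17 and Flt1 were at 0. Sertoli markers came to 2764 against 4010.0 CPM, of which Ctsl alone, which stroma also makes, was 2339, and Amh, Dhh, Gata1, Rhox5 and Cst12 were at 0. Of 12 germ cell markers 10 gave UMIs, 66.0 against 55.1 CPM, led by Prm1 with 43 UMIs, with Dazl and Akap4 at 0. Myoid and pericyte markers came to 38.9 against 9.12 CPM, led by Cspg4 with 43 UMIs, with Cnn1, Rgs5 and Abcc9 at 0, so 3 of the 10 myoid and pericyte markers gave no UMI. The remaining lists were small: adipocyte 61.4 against 62.3 CPM (Lpl first, Adipoq and Cidec at 0), chondro-osteogenic 59.8 against 52.8 (Alpl first, Col2a1, Bglap, Ibsp and Chad at 0), mesothelial and epithelial 2.56 against 6.84, adrenal 1.02 against 9.88, and lymphoid and erythroid 0 against 0.760 and 0.760. Progenitor markers came to 2549.7 against 850.0 CPM (Dcn first, Clec3b at 0), myofibroblast markers to 809 against 149.6 (Acta2 first) and proliferation markers to 76.7 against 64.2. Macrophage, endothelial and myoid markers were higher as sums in low than in high cells, as matrix genes were, but few cells or genes carried these sums. Macrophage markers were highest in middle cells. In low cells Cdh5 gave 80 of 116 endothelial UMIs and Cspg4 43 of 76 myoid and pericyte UMIs. The part of these markers in the result was not tested.

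Promoters were looked up for 13 genes, those of the rule and the label together with Star, Insl3, Lhcgr, Prlr, Acta2 and Tagln, which were chosen after their values were seen, and the RefSeq table of the GRCm38.p6 build held 14 windows for 9 of them, each of 250 bases before to 50 after a start. The letters CAAGGNCA, to which NR5A1 binds, were searched on both strands and were in 0 of the 14 windows and in 2204 of all 32851 windows of that length (6.71%). TATAAA had been searched first and dropped. The shorter AGGTCA, a nuclear receptor half-site searched after that, was in 5340 (16.3%) and in 2 of the 14, at Lhcgr and at 1 of 2 starts of Cyp11a1. These 2 windows are printed with the half-site in capitals, Lhcgr because it has the smallest ratio of low to high cells at 50 CPM or more apart from the rule genes and Cyp11a1 because it is a rule gene, together with the windows of Insl3 and of Acta2. Lhcgr is on the minus strand at chr17:88791965-88792264, Cyp11a1 on the plus strand at chr9:58014702-58015001, Insl3 on the plus strand at chr8:71689002-71689301 and Acta2 on the minus strand at chr19:34255324-34255623. A match describes letters in a window and a window without one says nothing of the factor.
Lhcgr: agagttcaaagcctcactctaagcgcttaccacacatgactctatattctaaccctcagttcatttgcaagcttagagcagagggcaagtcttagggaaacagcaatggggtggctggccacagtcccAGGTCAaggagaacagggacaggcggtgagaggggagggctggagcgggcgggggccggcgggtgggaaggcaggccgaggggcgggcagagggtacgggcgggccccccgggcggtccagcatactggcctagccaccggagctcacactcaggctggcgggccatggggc
Cyp11a1: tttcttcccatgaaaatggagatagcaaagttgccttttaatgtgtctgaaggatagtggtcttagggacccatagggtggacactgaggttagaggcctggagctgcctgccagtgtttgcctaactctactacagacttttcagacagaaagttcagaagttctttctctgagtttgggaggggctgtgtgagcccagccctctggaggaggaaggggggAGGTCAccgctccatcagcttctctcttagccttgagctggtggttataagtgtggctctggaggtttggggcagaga
Insl3: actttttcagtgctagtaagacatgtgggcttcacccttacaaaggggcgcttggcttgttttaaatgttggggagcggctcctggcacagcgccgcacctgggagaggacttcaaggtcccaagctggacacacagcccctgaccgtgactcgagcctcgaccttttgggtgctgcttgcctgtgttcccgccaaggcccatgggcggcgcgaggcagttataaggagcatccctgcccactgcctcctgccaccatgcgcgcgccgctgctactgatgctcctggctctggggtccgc
Acta2: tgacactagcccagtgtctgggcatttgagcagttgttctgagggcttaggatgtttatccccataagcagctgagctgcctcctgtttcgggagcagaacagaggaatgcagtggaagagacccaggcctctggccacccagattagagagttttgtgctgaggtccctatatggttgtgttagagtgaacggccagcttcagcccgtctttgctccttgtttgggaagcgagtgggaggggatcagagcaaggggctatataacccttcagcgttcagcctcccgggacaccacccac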

How the data were processed

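UMI counts per gene and cell were deposited by the authors as counts, with no scaling, as 1 merged table of 24698 genes and 1 table per day. Per the submitters' processing notes reads were handled with Drop-seq tools, Picard 2.6.0 and SAMtools 1.2 and aligned to GRCm38 with STAR 2.5.2a, and per the paper's methods a cell needed 500 genes or more and no more than 10% mitochondrial UMIs to be kept. The counts of the merged table were the same as those of the day tables, with 0 entries that differ. Its 495 columns of other libraries were not used.

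Groups were set by the rule given at the start of the report. The members and the lists were chosen with earlier results of these data known. Counts were summed per group and given as CPM of the UMIs of the group, with exact Poisson 95% intervals for levels, conditional exact intervals for ratios, Clopper-Pearson intervals for shares and order statistics for medians. A count of 0 was given the limit of 3 counts. A gene was measured with at least 20 UMIs in the 2 groups together, and a fold of 2 was counted over all genes among those with at least 50 CPM in either group and within the gene lists without that minimum. Log2 ratios used 1 CPM as pseudocount. There are 28 gene lists, with the rule genes as 1 of them, and 16 lists of cell type markers. Named are every rule and label gene, the 2 to 4 members of each list with the most UMIs and members that define a list, the 15 largest and 15 smallest ratios of low to high cells at 50 CPM or more with the rule genes left out, and the 10 largest and 10 smallest ratios of day 14 to day 7 at 100 CPM or more. Any other named gene was chosen after its values were seen. No test was made, since each day is 1 library.

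Cells were thinned to 1500 UMIs with seed 1, and clustered with Leiden on principal components without the rule genes. Alternatives changed the rule, the depth, the cell filter, the weight of cells, doublets (Scrublet, without the 6% of cells with the highest score), the scaling, the pseudocount, the minimum CPM and the clustering, and 2 ways of treating barcodes that share 11 bases were added after seeing the data. The code was tested on simulated data. Python 3.11.15 was used with numpy 2.4.6, scipy 1.17.1, pandas 2.3.3, scanpy 1.11.5, anndata 0.12.19, igraph 0.11.9 and matplotlib 3.10.9.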

Additional observations from a re-analysis of the deposited data

Results flagged for a closer look

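The day 14 table holds 327 barcodes that are not in the merged table, 313 of them with under 500 genes, and 283 of them hold UMIs, with a median of 344. No ratio above uses them, though some of their levels are given there. Their 123852 UMIs held signal above the 24.2 CPM that a count of 0 allows in all 7 rule and label genes, which is what flagged them: Cyp17a1 at 1889 CPM, Cyp11a1 at 2568, Hsd3b1 at 2091, Gpx3 at 533, Selenbp1 at 137, Mmp2 at 363 and Apoe at 2406. Each level of the enzymes lies between those of low and high cells or above both. Whether these barcodes are shallow cells or free RNA was not tested.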

How the results depend on the processing

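The main results comprised 145 values under 17 other settings and 2 added ones, which were chosen after seeing the data: 133 were the same, 12 moved and 0 reversed. Here a count is the same when it lies within 1.5 times the reported one, and a share, median or gene ratio when it lies in the 95% interval of the reported one, so a narrow interval moves sooner and the same is not equal. Counts called the same include those against day 7 with ratios shifted to a median of 0, 454 higher and 370 lower, where the direction with more genes turned. The share of day 14 cells called low, 45.4%, was 32.1% under the stricter rule of 0 UMIs of the 3 genes, 51.6% under the looser rule of below 10 per 10000, 39.7% among cells with at least 3000 UMIs and 41.3% after thinning to 1500 UMIs. The first 2 follow from the rule itself, and for the other 2 the cause was not tested. Without a minimum CPM the counts of genes past 2-fold were 635 higher and 428 lower against high cells and 1040 and 1648 against day 7, as more genes were counted. At 100 CPM, with fewer genes counted, 109 were higher and 116 lower against high cells, so that here too the direction with more genes turned, and 258 were higher and 295 lower against day 7. The 81.4% of low cells in clusters where they outnumber high cells was 92.3% at a resolution of 0.4 and 75.1% with barcodes alone, and the cause was not tested.

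The medians of 5 lists were recomputed and kept their direction in each setting that gave one: collagens ran from 0.82 to 1.48, progenitor genes from 1.06 to 1.25, lysosome genes from -0.18 to -0.10, steroidogenesis genes from -1.47 to -1.10 and contractile genes against day 7 from -2.56 to -2.12. Among 2188 values of 158 named genes, 1863 were the same in that sense and 325 moved, and 39 in 14 genes had the opposite sign, the largest reported log2 size among them being 0.50, that of Selenbp1. No paired analysis was possible because each day is 1 library. Limits are the single library per day, the shared barcodes, a rule that 1 UMI decides for many cells, and free RNA of unknown amount. Where depth is low, a gene not seen in a cell may still be expressed there.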

Other observations

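The cells were sorted for Sca1, the product of Ly6a, and against cKit. Ly6a was found in 30.1% of low and 33.5% of high cells (thinned 19.2% and 23.1%), with 733 and 970 UMIs, against 57.4% of day 4 and 15.5% of day 7 cells (thinned 42.3% and 6.38%), so low and high cells of day 14 had near equal shares and day 7 the lowest. Kit gave 0 UMIs in low, 11 in high, 0 in day 7 and 10 in day 4 cells. Both genes were chosen after their values were seen.

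Further values of low cells by cluster are for genes that were again chosen after their values were seen. Ptch1 was at 8.92 (2.43 to 22.8) CPM in the low cells of the Lum cluster, 82.5 (63.1 to 106) in those of the Acta2 cluster and 8.47 (1.03 to 30.6) in those of the deepest cluster, and Gli1 at 8.92 (2.43 to 22.8) and 18.9 (10.4 to 31.8) in the first 2, where the intervals of Gli1 overlap. Mgp was at 8143 (7881 to 8412), 1498 (1411 to 1589) and 2105 (1924 to 2299) CPM, and Ptgds at 312 (263 to 368), 256 (221 to 295) and 2563 (2363 to 2775). These genes also entered the clustering.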
